A study of Saccharomyces cerevisiae with 21 samples.

Results

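The cytosolic chaperonin CCT, also called TRiC, is a folding machine of stacked rings that is built from the products of 8 related genes. In Saccharomyces cerevisiae these genes are TCP1 (YDR212W), CCT2 (YIL142W), CCT3 (YJL014W), CCT4 (YDL143W), CCT5 (YJR064W), CCT6 (YDR188W), CCT7 (YJL111W) and CCT8 (YJL008C). Their transcripts were followed in the diploid laboratory strain BY4743 through a cycle of drying and rehydration. The 8 genes were taken by symbol from the probe sets of the Affymetrix YG_S98 chip that list a single gene, which together name 5656 genes. Each of the 8 was read by 1 probe set, so no choice between probe sets had to be made.

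All groups were BY4743 cells grown at 30 °C in YPD (rich medium with glucose) until the A600 was 0.8 and then moved into YPD diluted 1:20 at 22 to 25 °C. The control was an aliquot taken after that move and before drying. The other groups were cells after 18 h of drying, which the sample titles call 50% dry, dry cells after 42 h of drying and a further 72 h at 20% relative humidity, and dry cells given diluted YPD again for 15, 45, 90 and 360 min. Each of these 7 time points had 3 arrays, 21 in all. Rehydrated cells came from pooled plates, and no undried culture of the same age was analysed here, so drying cannot be told apart from time spent in the diluted medium. The labels do not say whether replicates were separate cultures, so the p-values cover only the variation among these arrays, part or all of which may be technical.

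CCT closes newly made proteins inside its cavity and uses ATP to drive their folding. Actin and the tubulins are its best known clients, and some proteins with WD repeats depend on it as well. Prefoldin hands unfolded actin and tubulin to the chaperonin, and phosducin-like proteins act as its cofactors. Every ring holds 1 copy of each of the 8 subunits at a fixed place, and each subunit gene is essential in yeast. One side of the ring, made of TCP1, CCT2, CCT4 and CCT5, binds ATP more tightly than the other side, made of CCT3, CCT6, CCT7 and CCT8.

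The deposited signals had nearly the same trimmed mean on each array and were taken as already scaled, so every change is relative to the other signals of its array. Fewer cells with intact RNA and less RNA per cell cannot be told apart in such data. Arrays were scanned on 4 days. The control arrays and replicate 2 of 18 h shared the first day, the other 18 h arrays shared the second with the dry, 15 min and 45 min arrays, and the 360 min arrays and 2 of the 90 min arrays were scanned on the third. Replicate 2 of 90 min stood alone on the fourth. For comparisons of 90 min with 45 min, and of 360 min with the dry or control groups, scan day and time point cannot be told apart. Control and dry arrays shared no scan day either, and only the 18 h group had arrays on both of their days. The chip carries ACT1 probe sets at the 3′ and 5′ ends of the transcript, whose log2 ratio rises as less of the 5′ end is labelled, for example in degraded RNA. It averaged -0.31 in control cells, 0.61 at 18 h, 1.05 in dry cells, and 1.72, 1.89, 2.43 and 2.32 at 15, 45, 90 and 360 min. The same ratio for SRB4 averaged 0.82 in control cells, 1.79 at 18 h, 1.72 in dry cells and 2.13 at 360 min. For SPT15 it averaged 1.66 in control cells, 1.80 at 18 h, 1.27 in dry cells and 2.78 at 360 min. The ratios of ACT1 and SRB4 were thus above control at each of these points, while that of SPT15 was below control in dry cells and differed at 18 h by 0.15 (exact permutation p = 0.4, two-sided, n = 3 each). Their part in the CCT signals below was not tested. Between 78.6% and 81.4% of probe sets on an array were above the background signal of 29.6, and the lowest CCT signal on any array was 94.7, for CCT7. Of the genes whose deletion marks BY4743, URA3 did not exceed background at any time point, while HIS3 (951 ± 43.1) and LEU2 (69.5 ± 6.99; SD, n = 3) were above it in control cells.

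The first comparison asked what 18 h of drying does to the chaperonin transcripts. All 8 CCT genes fell, CCT5 the furthest and TCP1 the least. The test was limma's moderated test, adjusted over 9275 probe sets and called at an adjusted p under 0.05, and 27.3% of all probe sets were called lower in this comparison. The median log2 change of the 8 genes was -1.09, beside 0.11 for all probe sets. For each of the 8 genes the highest 18 h array was below the lowest control array. Across all probe sets 32.9% had non-overlapping arrays in that direction.

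On the side of the ring that binds ATP more tightly, CCT5 had signals of 377, 346 and 339 at 18 h, against 2096, 2259 and 2143 in control cells. This is a level of 16.4% of control, with a log2 change of -2.61 ± 0.15 (SE) and an adjusted p of 2.23e-10. CCT4 gave 362, 334 and 346 at 18 h, against 1323, 1133 and 1077 in control cells. Its log2 change of -1.76 ± 0.14 (adjusted p = 9.32e-09) left 29.5% of the control level. The other two subunits of this side fell less. CCT2 gave 1263, 1477 and 1276 at 18 h, against 1986, 1947 and 2069 in control cells, a log2 change of -0.58 ± 0.09 (adjusted p = 3.96e-05). TCP1, the founding member of the family, gave 1060.5, 866 and 1102 at 18 h, against 1459.9, 1444 and 1382 in control cells. Its log2 change was -0.51 ± 0.12 with an adjusted p of 0.00102, and 30.6% of all probe sets had a lower change than TCP1.

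On the other side of the ring, CCT7 gave 185, 202 and 172.5 at 18 h, against 747, 499.8 and 571 in control cells. Its log2 change was -1.68 ± 0.18 (adjusted p = 4.14e-07) and all 3 arrays at 18 h were well below the lowest control array. CCT3 gave 558, 609.6 and 548 at 18 h, against 1278, 1238 and 1262 in control cells, a log2 change of -1.14 ± 0.10 (adjusted p = 3.01e-08). CCT8 fell to 845, 992 and 785 at 18 h, against 1804, 1756 and 1834 in control cells. Its log2 change was -1.05 ± 0.12 (adjusted p = 1.26e-06), close to that of CCT3. CCT6 fell least on this side, to 937, 1084 and 934 at 18 h, against 1638.5, 1533 and 1651.5 in control cells, with a log2 change of -0.71 ± 0.12 (adjusted p = 5.68e-05). Both sides of the ring thus held subunits that fell by more and by less than 2-fold, and 5 of the 8 genes passed the test with a change of at least 2-fold, as did 18.9% of all probe sets in that direction. Replicate 2 of 18 h, the array scanned on the same day as the controls, gave log2 changes against them from -0.44 for CCT2 to -2.64 for CCT5.

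**Figure D1:**
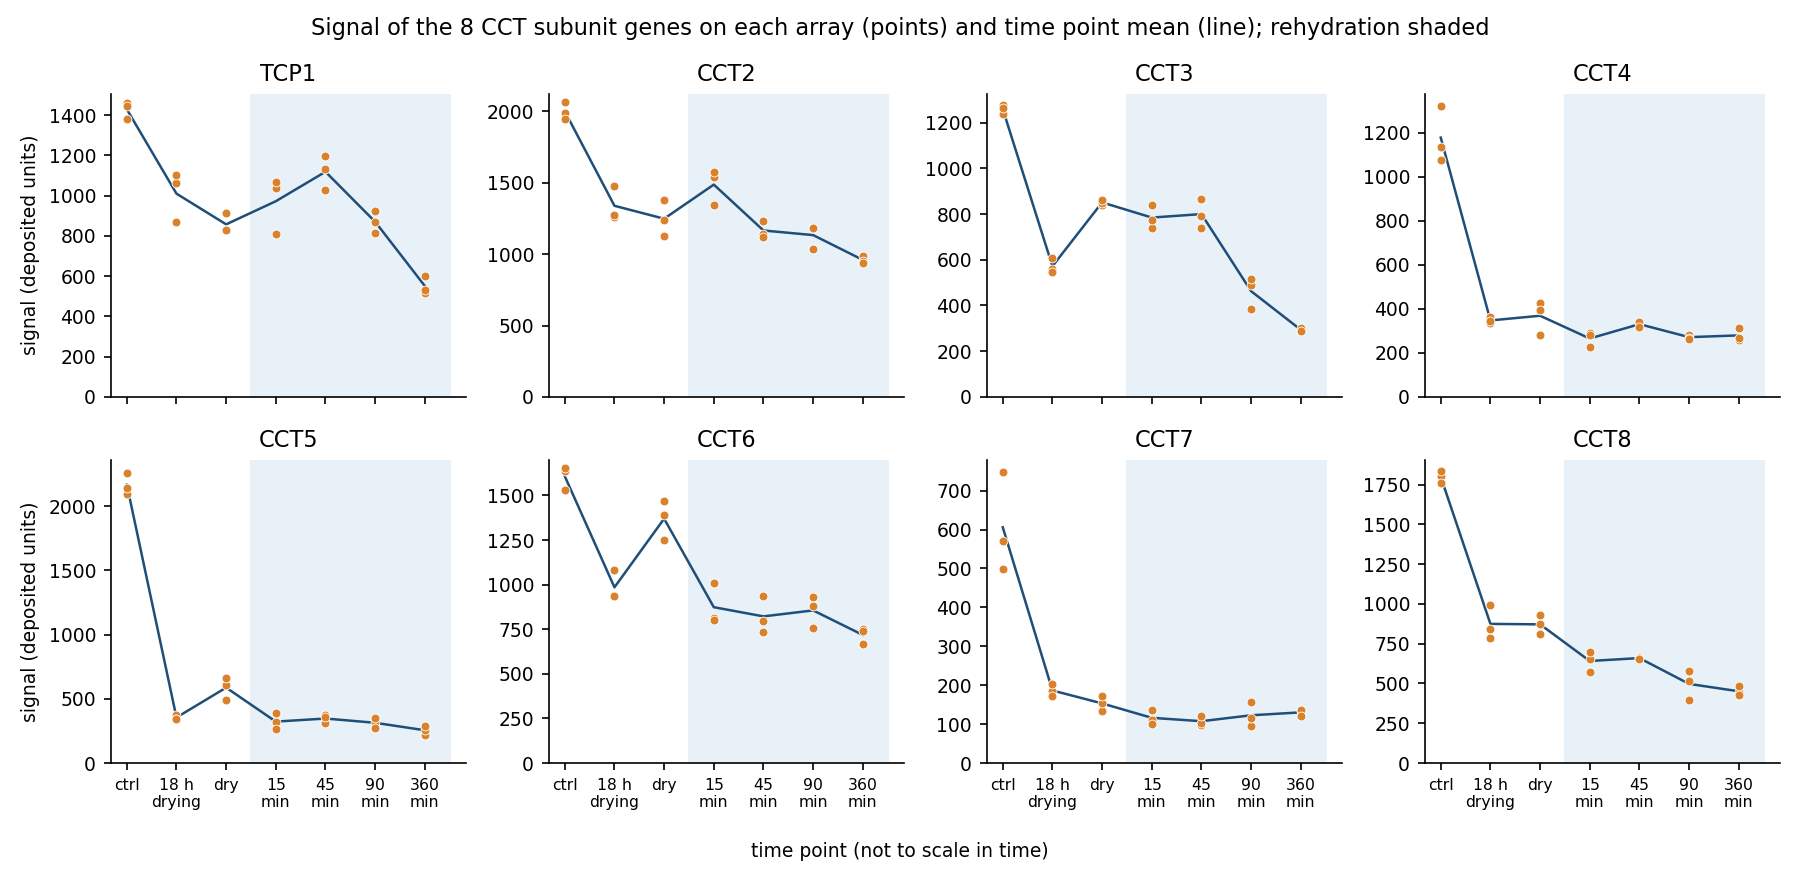
Deposited signal (linear axis) of each CCT gene on every array, by time point from control (left) to 360 min of rehydration (right). Points are arrays and the line joins the means of 3 arrays. CCT5 drops to 16.4% of its control level at 18 h, while TCP1 and CCT2 keep 70.7% and 66.9%.

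Dry cells were then set against cells at 18 h of drying. Of the 8 genes, 3 rose between these points, CCT3, CCT5 and CCT6, while the other 5 did not pass the test. In this comparison 22.1% of all probe sets were called higher. CCT5 had signals of 490.4, 609 and 661 in dry cells, against 377, 346 and 339 at 18 h, a log2 change of 0.72 ± 0.15 (adjusted p = 0.00129). CCT3 had 839.8, 850.2 and 862.5 in dry cells, against 558, 609.6 and 548 at 18 h, a log2 change of 0.57 ± 0.10 (adjusted p = 0.00021). CCT6 had 1389, 1471.5 and 1248 in dry cells, against 937, 1084 and 934 at 18 h, a log2 change of 0.48 ± 0.12 (adjusted p = 0.00411). None of these 3 genes had overlapping arrays between the 2 groups, and 30.0% of all probe sets were higher in dry cells without overlap. The call for CCT6 was lost when arrays were centred on their median (adjusted p = 0.085) or scaled to the spike-in controls (adjusted p = 0.0996). The changes of the other 5 genes ran from -0.29 for CCT7, over -0.23 for TCP1, -0.10 for CCT2 and -0.00 for CCT8, to 0.06 for CCT4. The 95% interval of the CCT8 change was -0.26 to 0.26. Without replicate 2 of 18 h, the one scanned on another day, TCP1 was called lower in dry cells (-0.34, adjusted p = 0.0364), and CCT7 was called lower under quantile normalization (-0.43, adjusted p = 0.0434) and median centring (-0.46, adjusted p = 0.0366).

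Against control, 7 of the 8 genes were lower in dry cells, where 27.2% of all probe sets were called lower. CCT7 stood at 25.3% of the control level, CCT5 at 27.1% and CCT4 at 31.3%. TCP1, CCT2, CCT3 and CCT8 lay between 48.5% and 67.6%. CCT6, at 85.2% of control, did not pass the test, with a log2 change of -0.23 ± 0.12 and an adjusted p of 0.0912. With median centring or spike-in scaling CCT6 was called lower too.

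**Figure D2:**
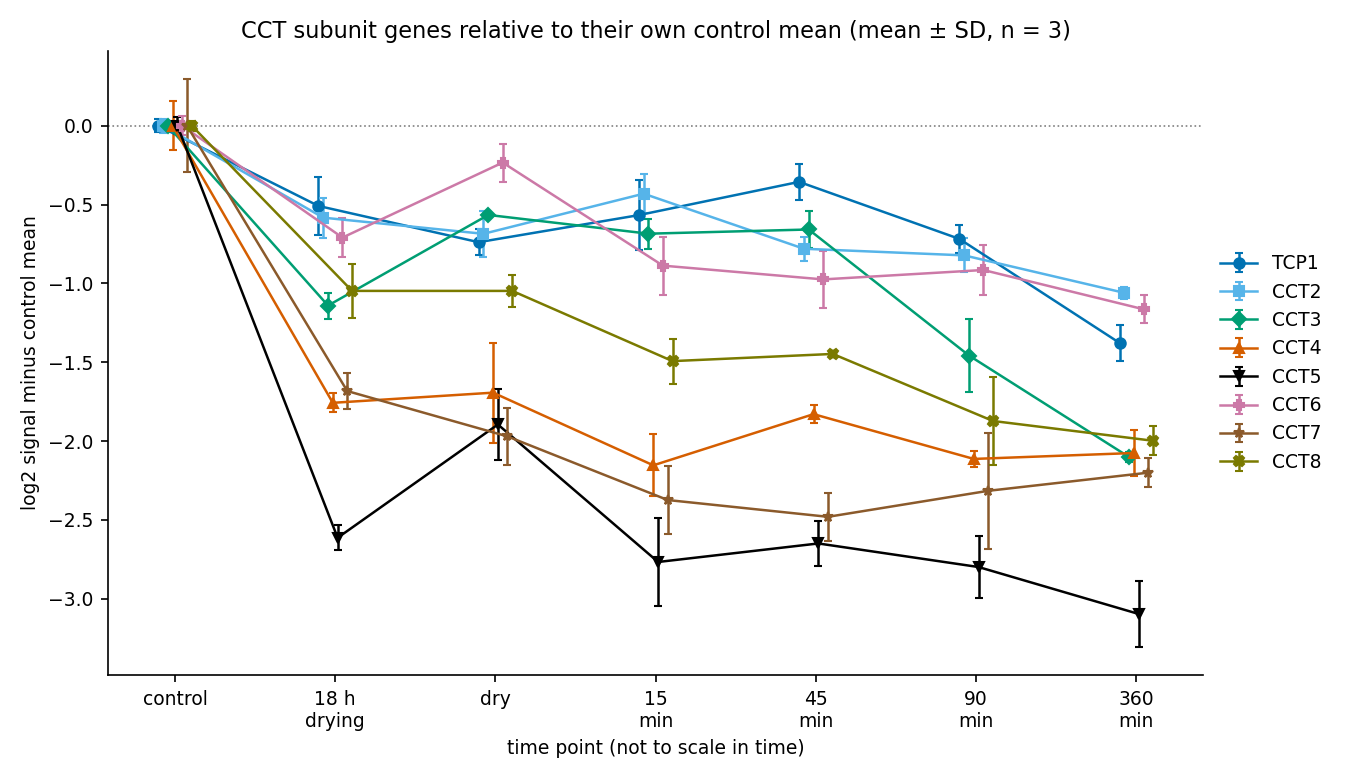
Log2 signal of each CCT gene minus its control mean (vertical axis), mean ± SD of 3 arrays, by time point from control to 360 min of rehydration. The lines leave control together and separate by 18 h, where they span -0.51 to -2.61, and they stay below 0 through 360 min.

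Rehydration was followed first over 15 min in diluted YPD. Relative to dry cells, 4 of the 8 genes fell, CCT4, CCT5, CCT6 and CCT8, and CCT2 rose. Of all probe sets 27.6% were called lower here and 12.8% higher. CCT5 had 317, 387 and 262 at 15 min, against 490.4, 609 and 661 in dry cells, a log2 change of -0.87 ± 0.15 (adjusted p = 0.000306). CCT6 had 815, 1006 and 799 at 15 min, against 1389, 1471.5 and 1248 in dry cells, a log2 change of -0.65 ± 0.12 (adjusted p = 0.000395). For both genes these were changes opposite to those between 18 h and the dry state. CCT8 had 573, 655 and 695 at 15 min, against 811, 930.5 and 872 in dry cells, with a log2 change of -0.45 ± 0.12 (adjusted p = 0.00885).

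CCT4 had 288, 282 and 225.5 at 15 min, against 283, 428 and 395 in dry cells. Its arrays overlapped, its log2 change was -0.46 ± 0.14 (adjusted p = 0.0143), and the call was lost without dry replicate 2 (-0.34, adjusted p = 0.0771), dry replicate 3 (-0.40, adjusted p = 0.0621) or 15 min replicate 3 (-0.35, adjusted p = 0.0767). CCT2 had 1346, 1543 and 1572 at 15 min, against 1124, 1377 and 1243 in dry cells, which also overlapped. Its log2 change was 0.25 ± 0.09 with an adjusted p of 0.0395. That call was lost without dry replicate 1 or 3 or without 15 min replicate 2 or 3, with adjusted p from 0.0858 to 0.172. It was also lost in the fit of these 2 groups alone. That fit called 3 members, all lower, and its share of all probe sets is not given here. The directions at 15 min also depended on scaling. With arrays centred on their median, TCP1, CCT2 and CCT3 were called higher and CCT5 lower, and with scaling to the spike-in controls all 8 were called lower. Spike-in scaling moved the median of all probe sets itself by -0.71 and called 5718 of the 9275 probe sets lower. Whether that scaling follows the amount of RNA per cell was not tested. CCT5 was the only member called lower under the deposited scaling, quantile normalization, median centring and spike-in scaling alike.

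**Figure D3:**
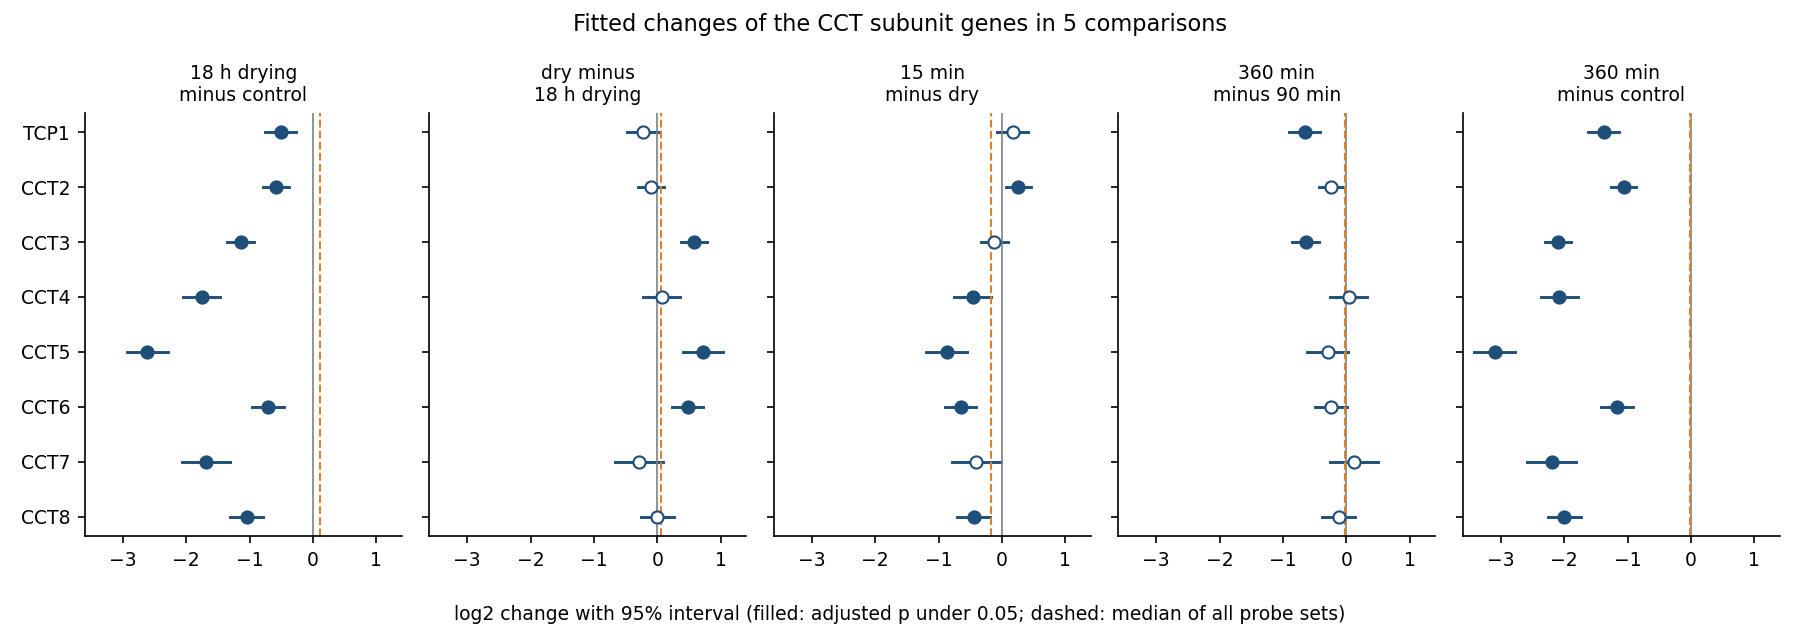
Log2 change of each CCT gene with its 95% interval in 5 comparisons, the later group over the earlier one. Filled points passed the test at an adjusted p under 0.05 and dashed lines mark the median of all probe sets. At 18 h against control all 8 points are filled and lie below the line.

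From 15 to 45 min of rehydration no CCT gene passed limma's test, and only 0.420% of all probe sets were called in either direction. An unadjusted p under 0.05 was found for 2 members. The share of all probe sets at that unadjusted threshold is not given here, and the 0.420% does not stand for it. The largest difference among members was that of CCT2, with a log2 change of -0.35 ± 0.09 and an adjusted p of 0.121. At 90 min against 45 min CCT3 fell, where 3.32% of all probe sets were called lower. It had 488, 516.5 and 382 at 90 min, against 793.5, 739 and 867 at 45 min, a log2 change of -0.80 ± 0.10 (adjusted p = 0.000838) with no overlap. CCT8 (-0.43 ± 0.12, adjusted p = 0.0549) did not pass. Without replicate 2 of 90 min, the array scanned alone, CCT8 was called lower as well (-0.55, adjusted p = 0.0262), which made 2 members. In the fit of these 2 groups alone neither was called, and CCT3 had an adjusted p of 0.125.

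At 360 min against 90 min, TCP1 and CCT3 fell, where 22.0% of all probe sets were called lower. TCP1 had 518, 601 and 533 at 360 min, against 923, 816 and 870 at 90 min, a log2 change of -0.66 ± 0.12 (adjusted p = 0.000289). CCT3 had 289.9, 301 and 289 at 360 min, against 488, 516.5 and 382 at 90 min, a log2 change of -0.64 ± 0.10 (adjusted p = 8.74e-05). CCT2 (-0.24 ± 0.09, adjusted p = 0.0562) did not pass, nor did it in 12 of 20 alternatives. In the others it was called lower, for example without replicate 2 of 90 min (-0.30, adjusted p = 0.0309). For 6 of the 8 genes, all but CCT4 and CCT7, the lowest mean of the time course was at 360 min. The share of all probe sets with their lowest mean there is not given here.

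Over the whole of rehydration, 7 of the 8 genes were lower at 360 min than in dry cells, where 40.7% of all probe sets were called lower. The log2 changes were -1.54 for CCT3, -1.20 for CCT5, -0.95 for CCT8, -0.93 for CCT6, -0.64 for TCP1, -0.38 for CCT4 and -0.37 for CCT2. CCT7 did not pass the test (-0.23 ± 0.18, adjusted p = 0.283). CCT4 lost its call without dry replicate 2 or 3 or without 360 min replicate 1 or 2, with adjusted p from 0.0686 to 0.129. Under quantile normalization or median centring the calls narrowed to CCT3, CCT5, CCT6 and CCT8. The shares of all probe sets called under these 2 scalings are not given here.

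None of the 8 transcripts had returned to its control level at 360 min. All 8 were lower than in control cells, where 36.4% of all probe sets were called lower, and the median log2 change of the 8 was -2.04, beside -0.01 for all probe sets. CCT5 had 218, 256 and 291 at 360 min, against 2096, 2259 and 2143 in control cells, which is 11.8% of control and a log2 change of -3.10 ± 0.15 (adjusted p = 1.88e-11). CCT8 had 444.5, 482 and 425 at 360 min, against 1804, 1756 and 1834 in control cells, a log2 change of -1.998 ± 0.12 (adjusted p = 3.13e-10). CCT2 kept the most, with 988, 951 and 939.6 at 360 min, against 1986, 1947 and 2069 in control cells, and its log2 change was -1.06 ± 0.09 (adjusted p = 2.96e-08). The remaining changes were -2.20 for CCT7, -2.10 for CCT3, -2.08 for CCT4, -1.38 for TCP1 and -1.16 for CCT6. These 8 calls held under every alternative processing that was run. Against control, spike-in scaling moved the median of all probe sets by -2.24 in this comparison, so the changes under that scaling were larger. Under it 7196 of the 9275 probe sets were called lower.

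**Figure D4:**
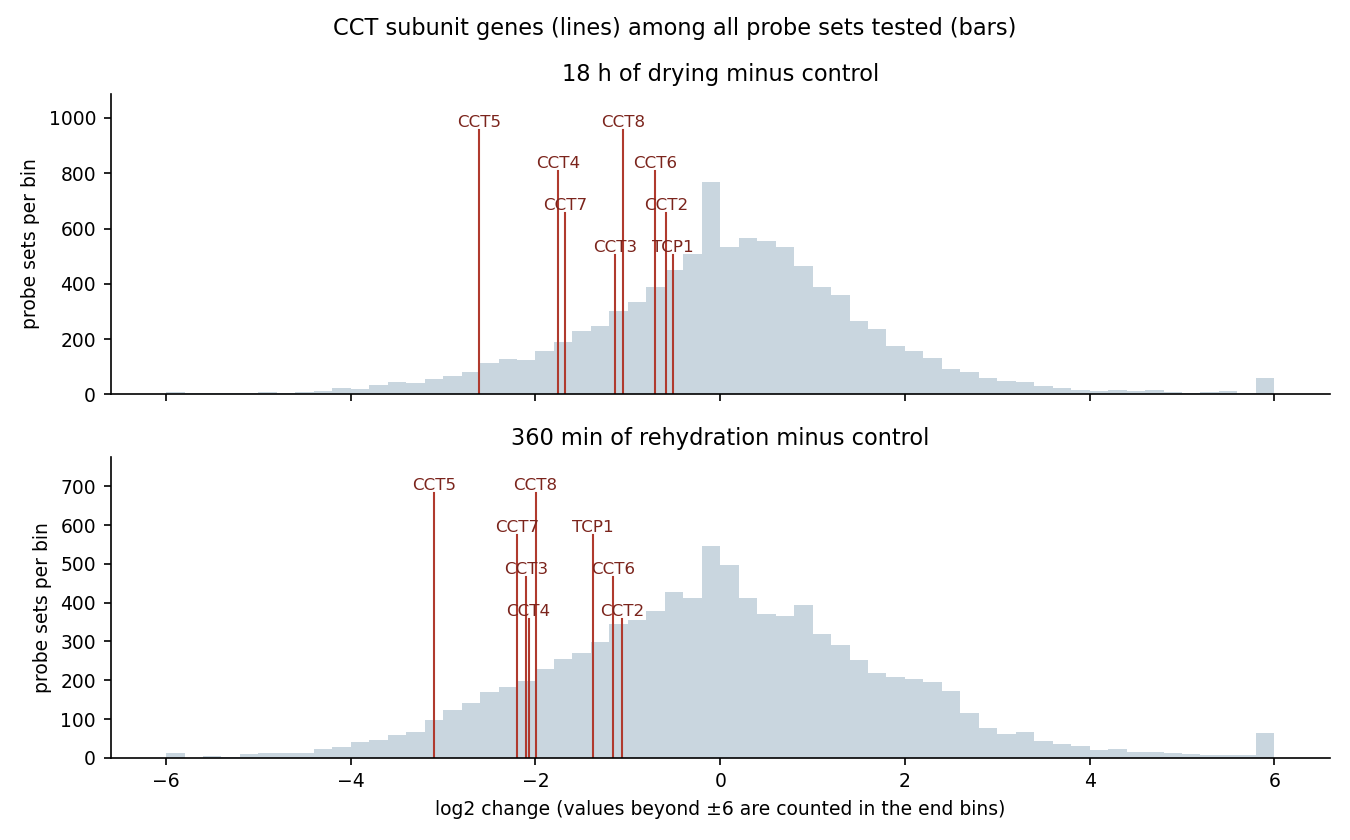
Histograms of the log2 change of all 9275 probe sets at 18 h and at 360 min, each against control, with the 8 CCT genes marked. The members lie left of the median of all probe sets in both panels, between -0.51 and -2.61 at 18 h and between -1.06 and -3.10 at 360 min.

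Every CCT gene varied over the 7 time points by limma's moderated F test, with adjusted p from 1.65e-10 for CCT3 and CCT5 to 7.33e-07 for CCT6. By that test 84.2% of all probe sets varied. In each gene control was the highest group, with no overlap with the next. The share of all probe sets with control highest in this way is not given here. Below control the order differed between members. For CCT3, CCT4, CCT5 and CCT6 the next highest group was the dry state, for CCT7 and CCT8 it was 18 h of drying, for TCP1 45 min and for CCT2 15 min. Most neighbours below control overlapped. CCT3 was the exception. Its steps down from 15 min to 18 h, from 18 h to 90 min and from 90 min to 360 min were each without overlap. The gap between the highest and lowest of the 8 genes on an array, each taken relative to its control mean, was 2.09 to 2.30 at 18 h. On the control arrays, which set that mean, it was 0.17 to 0.37 and shows only their own spread. The gap was 1.43 to 1.94 in dry cells and 1.81 to 2.30 at 360 min, so the 8 levels did not keep the ratios they had in control cells.

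As a description over the 21 arrays, which share time points, scaling and scan days, the log2 signal of each member correlated with the mean of the other 7 with r from 0.73 for TCP1 to 0.96 for CCT8. Without the 3 control arrays the range was 0.26 for CCT7 to 0.90 for CCT8. Outside the family, among 4746 named genes with a mean signal above background and a probe set not marked for cross-hybridization, the profile most like the mean of the 8 members was that of GIS2, an RNA-binding zinc-finger protein, with r of 0.99 over 21 arrays and 0.96 without control. LIP1, a subunit of ceramide synthase, came next (0.98 and 0.94), then SDD3 (0.98 and 0.88). GFA1 and QRI1, enzymes of UDP-N-acetylglucosamine synthesis, MDE1 of methionine salvage, HEM2 of heme synthesis and ILV2 of branched-chain amino acid synthesis also had r of 0.98 over 21 arrays, with 0.89 to 0.94 without control.

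The partners of CCT were read from lists of its cofactors, clients and neighbouring chaperones. Against control, 27.3% of all probe sets were called lower at 18 h and 36.4% at 360 min. Among prefoldin subunits, 3 of 6 fell at 18 h against control, PAC10 (-2.37 ± 0.17), GIM5 (-2.30 ± 0.21) and GIM3 (-0.46 ± 0.15), and YKE2 (-1.12 ± 0.54, adjusted p = 0.0819), GIM4 (-0.38 ± 0.33) and PFD1 (-0.45 ± 0.23) did not pass. With median centring or spike-in scaling YKE2 and PFD1 were called lower too, 5 in all. At 360 min 5 of the 6 were lower than in control cells, with GIM4 (0.20 ± 0.33) not passing. Under spike-in scaling GIM4 was called lower (-2.12). PLP2, an essential phosducin-like cofactor of CCT, fell to 118.5 ± 26.1 at 18 h, against 539.4 ± 39.1 in control cells (SD, n = 3 each; log2 change -2.21 ± 0.18, adjusted p = 1.46e-08).

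Among the clients, all 4 tubulin genes were lower at 18 h against control, beside 27.3% of all probe sets. TUB3, the minor alpha-tubulin, averaged 136.7 ± 32.2 at 18 h, against 2480 ± 109 in control cells (SD, n = 3 each; log2 change -4.21 ± 0.15). TUB2, beta-tubulin, changed by -1.31 ± 0.16, TUB1, the major alpha-tubulin, by -0.82 ± 0.20 and TUB4, gamma-tubulin, by -0.41 ± 0.13. At 360 min the 4 were again lower than in control cells, beside 36.4% of all probe sets, by -0.99 for TUB4 to -2.71 for TUB2. No direction is given for ACT1, whose own probe set rose (1.29 ± 0.09 at 18 h against control) while the chip's 5′ control probe set for the same gene changed by -0.97 ± 0.09. The alpha-tubulin genes TUB1 and TUB3 are close paralogs, and how far their probe sets cross-hybridize was not tested. The WD-repeat clients had changes of the opposite sign at 18 h. CDC20 (0.62 ± 0.22) and CDH1 (1.72 ± 0.14), activators of the anaphase-promoting complex, and CDC55 (1.22 ± 0.15), a phosphatase subunit, all 3 rose against control, where 36.2% of all probe sets were called higher. The call for CDC20 was lost under quantile normalization, median centring and spike-in scaling, with adjusted p from 0.0696 to 0.114. At 360 min CDC55 was lower than in control cells (-1.09 ± 0.15). CDH1 was higher (1.65 ± 0.14), where 33.7% of all probe sets were called higher, but CDH1 was lower under spike-in scaling (-0.67). CDC20 did not pass at 360 min. It was called higher under quantile normalization (0.52, adjusted p = 0.0458) and median centring (0.54, adjusted p = 0.0387), and lower under spike-in scaling (-1.99). Of the 6 tubulin folding cofactors, which act on tubulin after CCT, 4 fell at 18 h. They were RBL2 (-1.54 ± 0.20), CIN2 (-2.16 ± 0.26), PAC2 (-0.68 ± 0.29) and ALF1, which averaged 28.6 ± 4.42 at 18 h, a mean below background, against 70.0 ± 1.85 in control cells, and the count dropped to 2 without any 1 of the control arrays or without 18 h replicate 3. CIN1 was at least 1.98-fold higher at 18 h than in control cells, where it was at background.

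Other chaperone systems did not move as one. Of the chaperones that sit on the ribosome, 4 of 5 fell at 18 h against control, beside 27.3% of all probe sets, with BTT1 (0.21 ± 0.11) not passing. The Hsp70 SSZ1 changed by -2.82 ± 0.10, its partner ZUO1 by -2.73 ± 0.15, and the nascent-chain proteins EGD2 by -1.30 ± 0.15 and EGD1 by -1.07 ± 0.11. A probe set shared by SSB1 and SSB2, ribosome-bound Hsp70 genes, averaged 999 ± 78.9 at 18 h and 2159 ± 155 at 360 min, against 4366 ± 204 in control cells (SD, n = 3 each). It rose between the dry state and 360 min (log2 change 1.82 ± 0.18), where 7 CCT genes fell, but not under spike-in scaling (-0.19, adjusted p = 0.474). Of the 5 genes with their own probe set, 3 fell between these points, 1 rose and 1 did not pass, beside 40.7% of all probe sets called lower. All 5 were lower at 360 min than in control cells, where 36.4% of all probe sets were called lower. In mitochondria, HSP60, the distant relative of CCT in that organelle, rose at 18 h against control (0.53 ± 0.14, adjusted p = 0.00291), and its partner HSP10 fell (-2.58 ± 0.23). The HSP60 call was lost under spike-in scaling (0.24, adjusted p = 0.14). The mitochondrial Hsp70 SSC1 (-0.64 ± 0.11) and its exchange factor MGE1 (-1.96 ± 0.15) fell too, so 3 of the 4 genes of this list were lower, again beside 27.3% of all probe sets. Among cytosolic Hsp70 and Hsp90 genes, SSA3 had signals of 5203, 4720 and 5814 at 18 h, against 29.8, 27.7 and 31.1 in control cells, where 2 of its 3 arrays were just above background and the mean was below it, so no fold is given. HSP82 rose at 18 h against control (1.48 ± 0.17). SSA2 fell (-2.60 ± 0.18), and the difference of HSC82 (-0.20 ± 0.11, adjusted p = 0.142) did not pass, although it was called lower under quantile normalization, median centring and spike-in scaling. The SSA genes, like HSC82 and HSP82, are close paralogs whose cross-hybridization was not tested either. Of the 6 genes of this list, 2 rose, 1 fell and 3 did not pass, among them SSA1, whose single probe set was erratic. These shares are near those of all probe sets, 36.2% called higher and 27.3% lower.

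**Figure D5:**
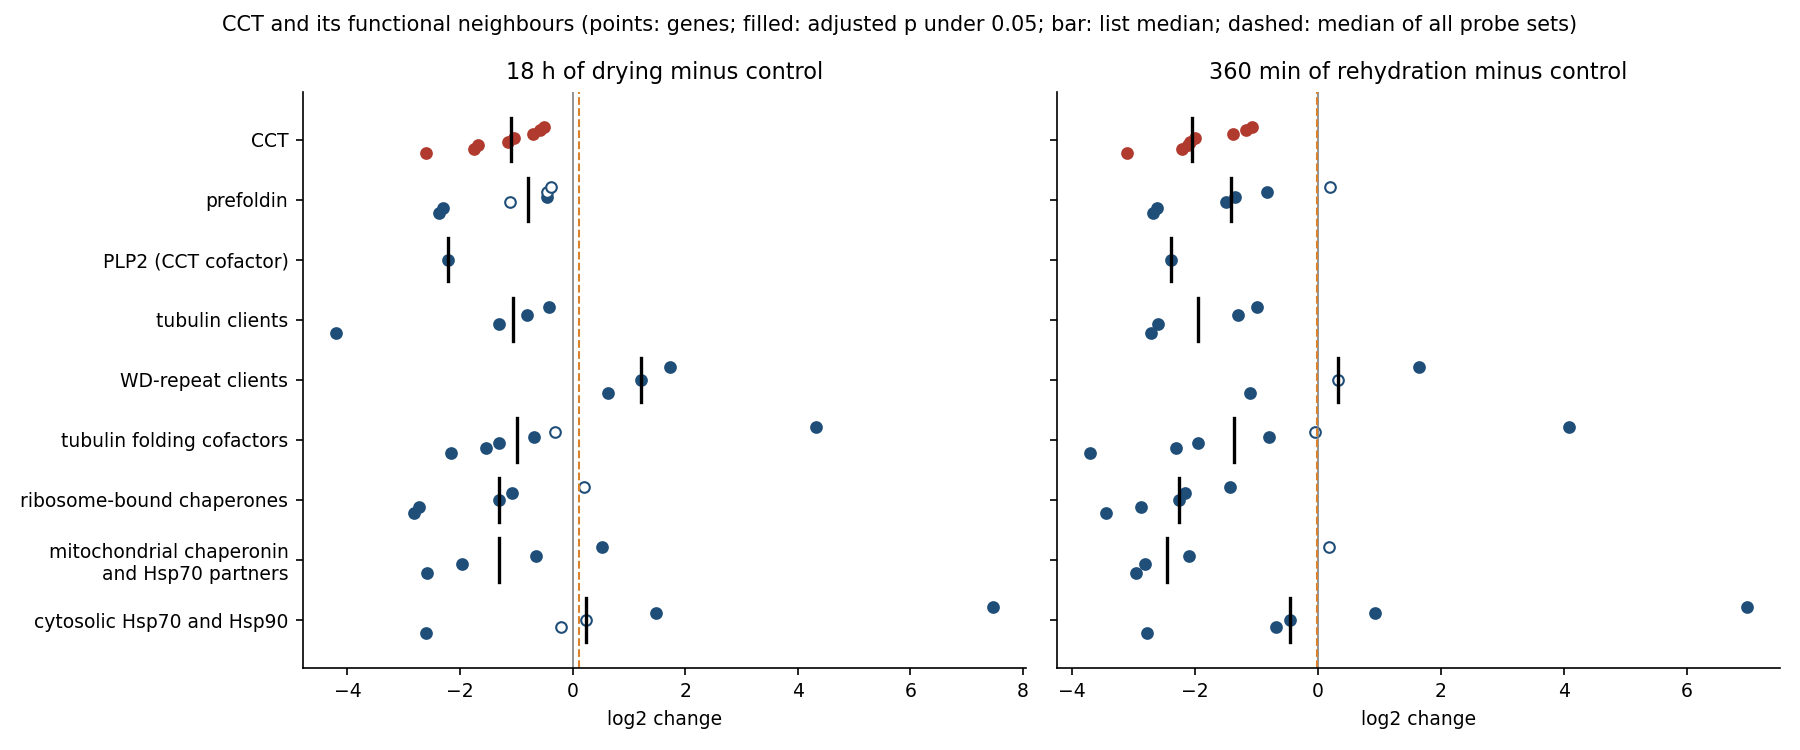
Log2 change at 18 h and at 360 min, each against control, of the CCT genes and of the lists of cofactors, clients and other chaperones, 1 point per gene. ACT1, whose probe sets disagree, and SSA1, whose single probe set was erratic, are left out. The 8 CCT points lie below 0 in both panels, while the Hsp70 and Hsp90 list has points on both sides of 0 at 18 h, with SSA2 at -2.60 and HSP82 at 1.48. The position of SSA3, whose control mean was below background, has no exact size.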

How the data were processed

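The deposited table holds 1 intensity (linear probe set signal) per array, which the authors made, per the labels, with the GeneChip software, a Wilcoxon signed-rank step and a 2-step linear mixed model. The sources used here do not say whether the deposited values precede that model. Their 2% trimmed mean was 500.2 to 500.6 on every array, so they were used as deposited.

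Of 9335 probe sets, 60 controls were left out. Values under 2.9 (the 5th percentile) were set to 2.9 before log2. A mean per time point was fitted to 21 arrays with limma 3.58.1 in R 4.3.3, with eBayes and Benjamini-Hochberg adjustment over 9275 probe sets, in 9 comparisons. Background was set from 19 control probe sets for absent genes, at their 95th percentile. The model was tested for 18 h against control on simulated data with the observed variances. It recovered 82% of 50 log2 changes of -2 and 66% of 50 of -1. Of 50 changes of 1 and 50 of 2 it recovered 68% and 86%, with 14 false calls among 9275 probe sets. Far fewer changes were simulated than the 5892 probe sets called in the real comparison, so these rates do not describe that comparison. Probe sets were named from the platform annotation and RefSeq (R64, names only). The most alike genes were the 8 with the highest Pearson r to the members' mean profile. The members, lists and tests were chosen with earlier results of these data known. Alternatives covered scaling, floor, pseudocount, filter, variance model, blocks and each array left out in turn. Spike-in scaling used the 9 control probe sets for BioB, BioC, BioDn and CreX. Whether it follows the amount of RNA per cell was not tested.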

Additional observations from a re-analysis of the deposited data

How the results depend on the processing

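The 8 falls at 18 h against control and the 8 at 360 min against control kept their calls under each scaling, floor, filter, block and left-out array that was run. Over 72 member changes and their alternatives (1416 values), 1324 kept their side of the threshold, 50 lost the call with the same direction, 34 gained one and 8 turned direction with a call before or after. Of the 1324, 30 changed sign with no call before or after, and the others kept their direction. Asking for a change of at least 2-fold left 5 members at 18 h against control, 4 in dry cells against control, 2 at 360 min against dry, and 0 in dry cells against 18 h, at 15 min against dry, at 90 against 45 min and at 360 against 90 min. At 18 h against control 18.9% of all probe sets were lower by this rule. That share is not given here for the other comparisons. Spike-in scaling called 8 members at 15 min against dry, 3 at 90 against 45 min and 8 at 360 against 90 min, all lower. Of the 9275 probe sets, that scaling called 5718, 906 and 5631 lower in these comparisons. It moved the median of all probe sets by -0.71, -0.32 and -0.92, so these member counts go with chip-wide shifts. Quantile normalization and median centring each called 4 at 360 min against dry. A fit of the 2 groups alone called 3 at 15 min against dry and 0 at 90 against 45 min. At 90 against 45 min, 2 were called with the floor at the 20th percentile, log2(value + 50), the lowest 25% left out, an intensity trend, or without both arrays scanned apart from their group (the last added after seeing the data). Leaving out 1 array gave 3 to 5 members at 15 min against dry, lowest without dry replicate 3, and 1 to 2 at 90 against 45 min, highest without 90 min replicate 2. Apart from spike-in scaling and the 2-fold rule at 18 h, the shares of all probe sets called under these alternatives are not given here. Such member counts, here and above, therefore cannot be set against the rate over the whole chip.

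At 15 min against dry, spike-in scaling gave TCP1 -0.55 and CCT2 -0.47, and median centring gave CCT3 0.26. At 360 min against dry, median centring gave CCT2 0.15 and CCT4 0.14, and quantile normalization gave CCT4 0.14. At 360 against 90 min, spike-in scaling gave CCT4 -0.92 and CCT7 -0.84. The cause of these changes was not tested. Replicate numbers did not pair the samples (correlations of deviations from -0.13 to 0.09 over 27 pairs of arrays with the same number). A fit with the replicate number as a block called 8 members at 18 h against control and 4 at 15 min against dry, where CCT2 lost its call. The shares of all probe sets called in that fit are not given here. The number of arrays limits the precision, and the scan day could not be fitted as a fixed block at 90 against 45 min or at 360 min against dry or control.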
